A study of Homo sapiens with 18 samples.

Results

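BEAS-2B cells exposed to complete wood smoke were compared with BEAS-2B cells exposed to clean air, in 3 RNA libraries per condition chosen by cell line and exposure label, 6 of the 18 libraries of the series. The study set out, by its title, to ask which part of wood smoke is toxic to lung epithelial cells and points to gas-phase carbonyl compounds. BEAS-2B and A549 cells were each exposed to complete smoke, to filtered smoke or to clean air, in 3 libraries per condition. Cells had been seeded 24 h earlier on porous inserts 24 mm wide, 500000 BEAS-2B or 400000 A549 cells each, and the exposure at the air-liquid interface lasted 4 h, at a flow of 100 mL per min and 85% relative humidity.

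The groups were BEAS-2B under complete smoke, the same line under filtered smoke and the same line under clean air. All were labelled wild type, all grew in keratinocyte growth medium and all passed through the same humidified flow, so that the clean air libraries share the handling. BEAS-2B is a human bronchial epithelial line immortalised with an adenovirus and SV40 hybrid virus, and the large T antigen of SV40 binds p53, which limits the line as a model of p53 responses. A549 is a lung adenocarcinoma line with an active NRF2 pathway. It grew in another medium, RPMI with serum, so the line and its medium cannot be told apart. The labels do not state if libraries of a group derive from separate cultures or exposures. The p-values below measure only the spread between these libraries, which may be technical.

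Wood smoke carries particles that hold polycyclic aromatic hydrocarbons and a gas phase that holds aldehydes such as acrolein and formaldehyde. Aromatic hydrocarbons bind the aryl hydrocarbon receptor, which pairs with ARNT and switches on cytochrome P450 genes. Aldehydes react with thiols and amines, which can free NRF2 from KEAP1, unfold proteins so that HSF1 and the integrated stress response act, crosslink DNA and protein, and start kinase cascades that induce FOS-type immediate early genes and cytokines. Some of the gene lists followed below were drawn up from these pathways. Others, such as ribosomal protein, histone and cholesterol genes, belong to none of them. The 24 lists were chosen with earlier results of these data known, and 5 more were made after values had been seen.

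Sequencing depth was 55.0, 39.4 and 30.5 M reads counted to genes in complete smoke libraries 1 to 3, against 31.1, 31.0 and 28.5 M in clean air libraries 1 to 3. Complete smoke library 3 stood apart from the other two of its group. It had 31.7% of reads mapped to several places, and 12.6% of its uniquely mapped reads lay outside genes. In complete smoke libraries 1 and 2 the first share was 12.9% and 10.2%, and the second 1.40% and 1.22%. In clean air libraries 1 to 3 the first was 9.08%, 7.69% and 8.73%, and the second 3.51%, 5.37% and 6.41%. The share mapped to several places was thus higher in every complete smoke library than in every clean air library. On the first principal component, which held 77.2% of the variance over the 9 BEAS-2B libraries, the complete smoke libraries lay at 47.9, 38.8 and −10.6 and the clean air libraries at −32.4, −69.6 and −75.5. Clean air library 1 thus lay closer to smoke than the other clean air libraries did, and complete smoke library 3 closer to clean air. Over the 8055 genes that separated the other 4 libraries by at least 1 log2 unit, the median gene of complete smoke library 3 lay 57.9%, and that of clean air library 1 44.9%, of the way from clean air to complete smoke. Results are therefore also given without these 2 libraries. KRT18, a keratin of simple epithelia, was present in all 6 libraries, at 4579, 2895 and 2026 CPM (read counts scaled to a common effective library size) in complete smoke libraries 1 to 3 and 2104, 929 and 788 CPM in clean air libraries 1 to 3. The summed level of a line marker list, 10 keratins and epithelial genes and 7 mesenchymal genes, was 11253 to 25417 CPM under complete smoke and 5134 to 11616 CPM under clean air. The summed level of 22 markers of other lung cell types was 9.5 to 15.0 CPM under complete smoke and 9.80 to 16.6 CPM under clean air, and SFTPB, SFTPA1, SCGB3A1 and CD3E were at 0.

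**Figure D1:**
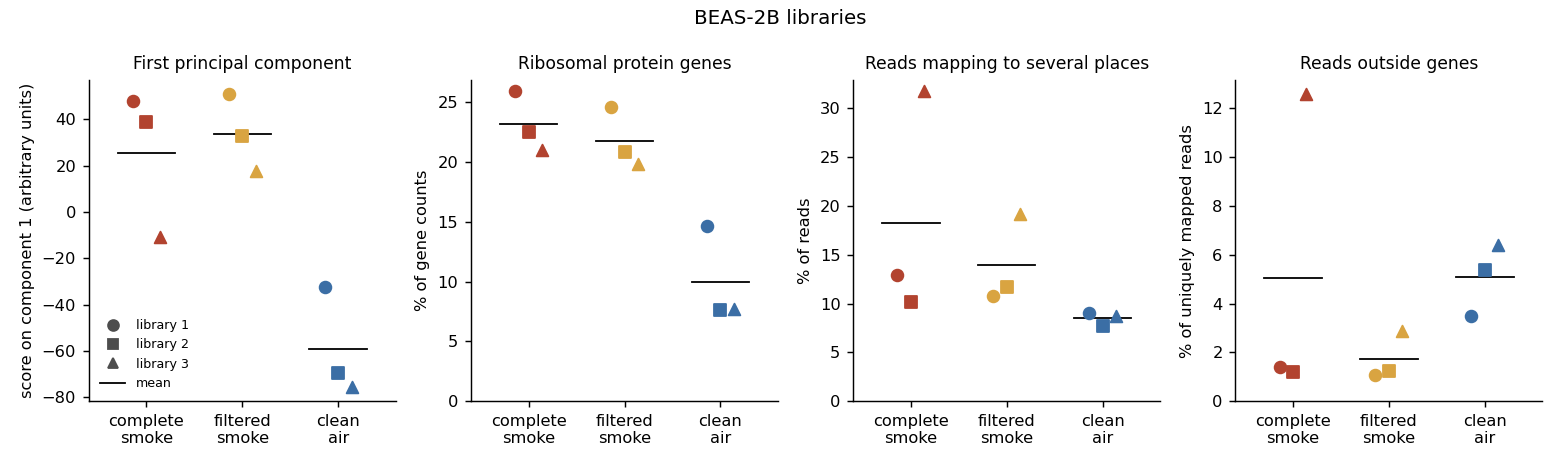
Each point is 1 BEAS-2B library (numbers 1 to 3) under complete smoke, filtered smoke or clean air, and the bar is the group mean; the panels show the first principal component, and the percentages of counts from cytosolic ribosomal protein genes, of reads mapped to several places and of uniquely mapped reads outside genes. Complete smoke library 3 has 31.7% multimapped and 12.6% non-genic reads, and it and clean air library 1 lie between the other libraries of the 2 groups on the first component.

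Complete smoke was accompanied by a broad change of the transcriptome. Of 16356 genes tested with edgeR's quasi-likelihood test, 3517 (21.5%) were higher and 3187 (19.5%) were lower under complete smoke at an adjusted p under 0.05, together 41% of the genes. A change of at least 4-fold was reached by 429 of the higher and 430 of the lower genes. The groups did not overlap for 48.8% of the genes, 24% with all complete smoke libraries higher and 24.8% with all lower. Without clean air library 1 and complete smoke library 3, 5320 of 16723 genes (31.8%) were higher and 5296 (31.7%) lower. That fit held 97.2% of the higher and 93.5% of the lower calls, and no gene was called in opposite directions. It reuses the other libraries and leaves out those nearest the other group, so this overlap is no separate support for the calls. The calls also depended on single libraries, since their number was 2916 without clean air library 3, 2991 without clean air library 2, 3600 without complete smoke library 1, 3757 without complete smoke library 2, 8298 without clean air library 1 and 9026 without complete smoke library 3. A set of 1350 higher and 1280 lower genes was called in every one of these 6 fits.

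The balance of higher and lower calls depended on the scaling. With library size alone in place of trimmed means, the median of all genes was −0.75 on the log2 scale, against −0.06 with trimmed means, and 1531 genes (9.36%) were higher and 6835 (41.8%) lower. Genes called higher were 52.5% of the calls with trimmed means and 18.3% with library size alone. All directions below are thus relative to the bulk of the genes in the same libraries. Fewer cells and less RNA per cell cannot be told apart in such bulk libraries, and neither can be read from them.

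**Figure D2:**
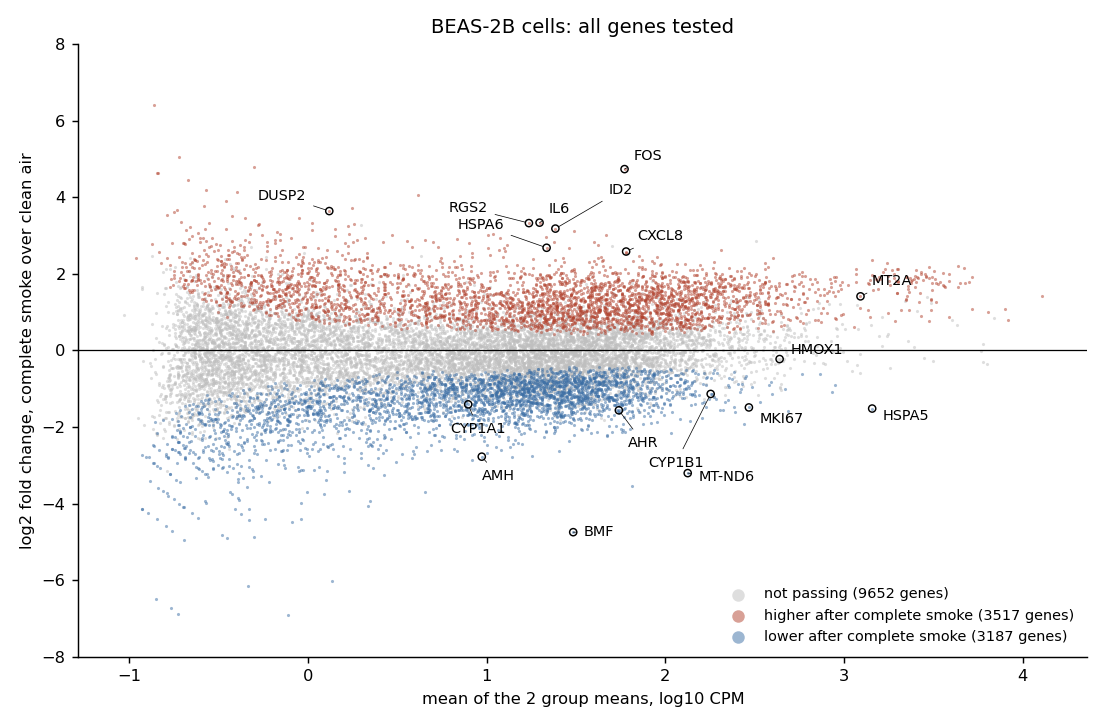
Each point is 1 of the 16356 genes, placed by the mean of its complete smoke and clean air group means (log10 CPM) and its log2 fold change, complete smoke over clean air. Colours separate the 3517 genes that were higher, the 3187 that were lower and the 9652 that did not pass. Some of the genes described in the text are labelled. Among the labelled genes FOS, DUSP2 and IL6 lie at the top and BMF at the bottom.

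FOS headed the protein-coding genes that rose, among those with a mean of at least 5 CPM whose groups did not overlap. FOS, a subunit of the AP-1 transcription factor, lies at chr14:75278774-75282230 (GRCh38) and had 83.3, 167 and 92.1 CPM in complete smoke libraries 1 to 3, against 1.49, 10.1 and 1.2 CPM in clean air libraries 1 to 3. The groups did not overlap, and clean air library 2 was the highest of its group. The log2 fold change was 4.73 ± 0.81 (SE; edgeR adjusted p = 0.00397) and lay between 4.28 and 6.40 when each library was left out in turn. The other genes at the top of the table were IL6, RGS2, ID2, DUSP23, IL24, PPP1R35, HES4, SNAI1 and CCL2, with log2 fold changes from 2.84 to 3.34, and each kept its call with any library left out.

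BMF headed the genes that fell, by the same rule. It encodes a BH3-only protein that promotes apoptosis when cells lose anchorage, and it lies at chr15:40087890-40108892. BMF mRNA was at 3.44, 1.78 and 1.32 CPM under complete smoke and at 64.2, 55.4 and 57.2 CPM under clean air, so every complete smoke library was below every clean air library. The log2 fold change was −4.75 ± 0.40 (adjusted p = 0.00124), and −4.40 without the 2 libraries that stood apart. Also among the lowest genes were MT-ND6, TGFBR3, AMH, EYA1, RAB27B, FLRT2, ABCA8, CFAP44 and FAM217B, with log2 fold changes from −3.20 to −2.53. AMH, the anti-Müllerian hormone, had 1.55, 2.34 and 3.32 CPM under complete smoke and 25.2, 10.9 and 13.1 CPM under clean air. TGFBR3, a co-receptor for TGF-beta, had 2.99, 2.10 and 5.56 CPM under complete smoke and 13.2, 29.7 and 30.3 CPM under clean air. Neither gene's groups overlapped. MUC5AC, a secreted mucin of goblet cells, was near the limit of detection, with 1 count in all under complete smoke and 193 counts in all under clean air, or 1.27, 1.48 and 1.85 CPM in clean air libraries 1 to 3.

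Immediate early genes, which respond within minutes to kinase signals without new protein synthesis, rose as a group. Of 42 tested, 26 rose and 0 fell (background 21.5% higher), with a median log2 fold change of 1.57 against −0.06 over all genes. The median was 0.87 with library size alone, where 18 were higher and 5 lower, and 1.28 without the 2 libraries that stood apart, where 25 were higher and 3 lower. The number of calls lay between 16 without clean air library 3 and 26 without complete smoke library 3, and was 17 without complete smoke library 2.

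Among the AP-1 subunits, JUNB, the FOS partner that often restrains JUN, had 68.4, 94.9 and 57.2 CPM under complete smoke and 17.4, 18.5 and 8.23 CPM under clean air (log2 fold change 2.32 ± 0.32; adjusted p = 0.00227). FOSL1 rose by 1.61 on the log2 scale. FOSL2 and JUND did not pass, at −0.33 and 0.44. EGR2, a zinc-finger factor of growth signalling, rose by 2.83 on the log2 scale. EGR1 did not pass, with 35.8, 66.6 and 64.2 CPM under complete smoke and 6.23, 38.2 and 5.44 CPM under clean air (log2 fold change 1.74; adjusted p = 0.0624). Its groups overlapped, because clean air library 2 was above complete smoke library 1. FOSB overlapped in the same way, at 6.91, 16.1 and 9.73 CPM under complete smoke and 1.27, 15.4 and 1.29 CPM under clean air.

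Genes that dampen kinase signalling formed the largest subgroup, 11 of 15 higher and 0 lower, with a median log2 fold change of 1.54. DUSP2, a nuclear phosphatase of MAP kinases, had 2.13, 3.58 and 1.61 CPM under complete smoke and 0.225, 0.196 and 0.161 CPM under clean air (log2 fold change 3.64 ± 0.39; adjusted p = 0.00152). The groups did not overlap. RGS2, which turns off G-protein signals, had 16.9, 41.7 and 35.5 CPM under complete smoke and 3.66, 2.7 and 3.04 CPM under clean air (log2 fold change 3.32). DUSP6, a phosphatase of ERK, rose by 2.75 on the log2 scale, and SPRY4, which restrains receptor tyrosine kinases, by 2.22. DUSP8, DUSP10, SPRED1 and RND3 did not pass, with values from −0.46 to 0.28.

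**Figure D3:**
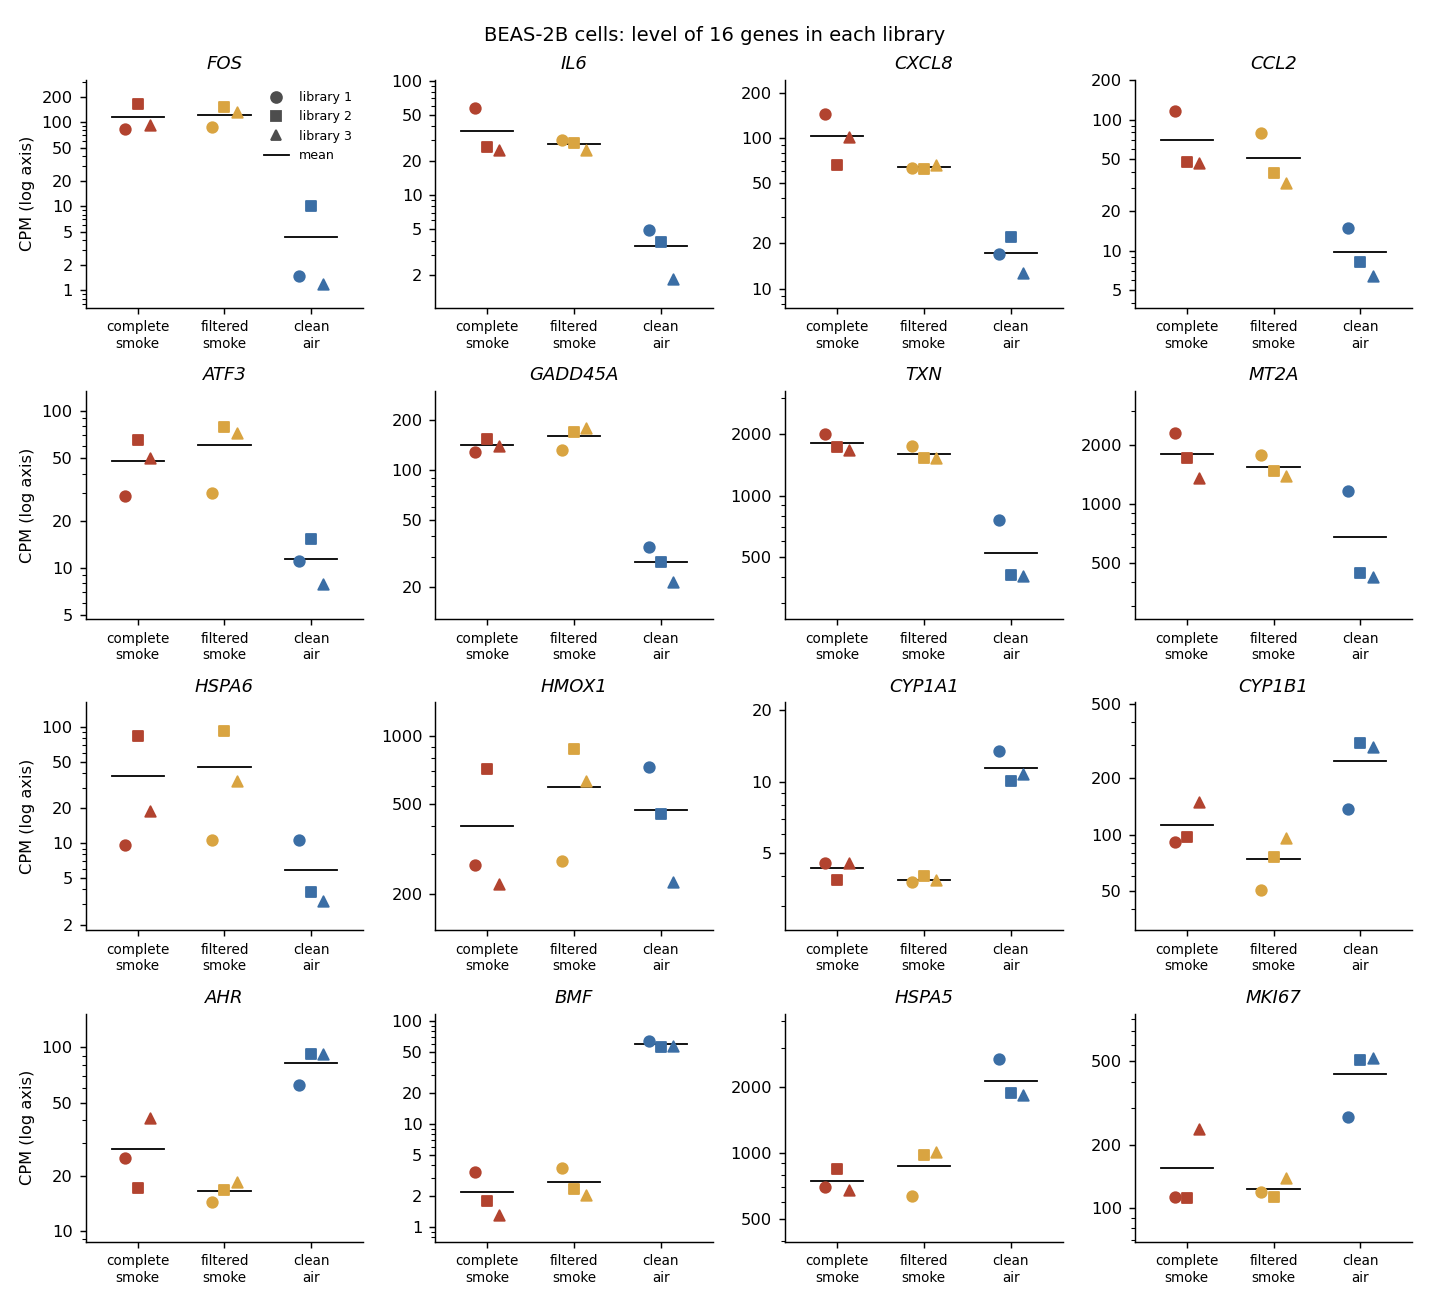
Each panel shows 1 of 16 genes, with the level in CPM on a log axis for each BEAS-2B library under complete smoke, filtered smoke and clean air. FOS, IL6, CXCL8, CCL2, ATF3, GADD45A and TXN are higher in every complete smoke library than in every clean air library, CYP1A1, AHR, BMF and HSPA5 are lower, and HMOX1 overlaps.

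Cytokine and chemokine mRNAs, most of them targets of NF-kB, rose too. Of 29 tested genes of the NF-kB and cytokine list 18 rose and 0 fell, beside 21.5% and 19.5% of all genes. The median log2 fold change was 1.51. It was 0.81 with library size alone, with 15 higher and 2 lower, and 2.0 without the 2 libraries that stood apart. Calls numbered from 13, in the fits without complete smoke library 1, clean air library 2 or clean air library 3, to 22 without complete smoke library 3. Of the 16 cytokines and chemokines, 13 passed the count minimum, 11 rose, and the median of the tested ones was 2.72. CSF3, TNF and IL33 did not reach the count minimum.

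IL6, the acute-phase cytokine, had 57.2, 26.2 and 24.7 CPM under complete smoke and 4.96, 3.92 and 1.85 CPM under clean air (log2 fold change 3.34 ± 0.44; adjusted p = 0.00213). CXCL8, which attracts neutrophils, had 144, 66.3 and 101 CPM under complete smoke and 17.0, 22.2 and 12.7 CPM under clean air (2.58 ± 0.31; adjusted p = 0.0017). CCL2, which attracts monocytes, had 116, 47.6 and 46.6 CPM under complete smoke and 14.8, 8.24 and 6.37 CPM under clean air (2.84 ± 0.51; adjusted p = 0.00473). None of these 3 overlapped between groups, and complete smoke library 1 was the highest for each. The alarmin IL1A and its relative IL1B rose by 2.80 and 2.82 on the log2 scale, and both kept their calls with any library left out. TSLP, an epithelial cytokine of allergic airway inflammation, had 4.31, 2.75 and 3.98 CPM under complete smoke and 0.338, 0.545 and 0.554 CPM under clean air (log2 fold change 2.92 ± 0.29; adjusted p = 0.00124). LIF and IL11 did not pass, at 0.86 and 0.62.

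Of the NF-kB subunits and feedback genes 6 of 13 rose and 0 fell, beside 21.5% and 19.5% of all genes. RELB, a subunit of the noncanonical pathway, rose by 2.66 on the log2 scale, NFKBIE by 1.97 and TRAF1, an adaptor of TNF receptors, by 1.89. The classical feedback genes NFKBIA and TNFAIP3 did not pass, at 0.07 (adjusted p = 0.912) and 0.15 (adjusted p = 0.613). NFKBIA had 61.8, 34.3 and 18.2 CPM under complete smoke and 50.6, 36.8 and 21.5 CPM under clean air. PTGS2 and SOD2 did not pass either, at 0.34 and −0.03, while ICAM1, an adhesion receptor for leukocytes, rose by 1.46.

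The genes of the aryl hydrocarbon receptor did not rise together. Of 14 tested, 3 rose and 5 fell (background 21.5% higher and 19.5% lower), with a median log2 fold change of −0.41, which was −1.11 with library size alone. Calls numbered 4 without clean air library 2, 9 without clean air library 1 and 5 to 7 without the others. CYP1A2 and UGT1A6 did not reach the count minimum.

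CYP1A1, the cytochrome P450 that serves as the usual readout of the receptor, lies at chr15:74719542-74725610 and had 4.56, 3.85 and 4.54 CPM under complete smoke and 13.5, 10.1 and 10.8 CPM under clean air. Every complete smoke library was below every clean air library, and the log2 fold change was −1.41 ± 0.20 (adjusted p = 0.00228). It lay between −1.49 and −1.27 when each library was left out. AHR, the receptor itself, had 25.1, 17.2 and 41.1 CPM under complete smoke and 62.3, 91.8 and 92.6 CPM under clean air (−1.56 ± 0.31; adjusted p = 0.0069). CYP1B1, a second P450 of this receptor, had 91.5, 96.4 and 149 CPM under complete smoke and 136, 310 and 295 CPM under clean air. Complete smoke library 3 was above clean air library 1, so these groups overlapped, and the call of CYP1B1 (−1.14 ± 0.36; adjusted p = 0.0331) was lost without complete smoke library 1, complete smoke library 2, clean air library 2 or clean air library 3, where the adjusted p reached 0.114. The feedback repressors TIPARP and AHRR did not pass, at −0.38 (adjusted p = 0.161) and 0.25 (adjusted p = 0.562). ALDH3A1, an aldehyde dehydrogenase, was at 4.18, 4.14 and 1.97 CPM under complete smoke and 13.0, 6.14 and 5.91 CPM under clean air (−1.27; adjusted p = 0.0446), and its call was lost with any of the 6 libraries left out. Among the other targets of the list, 2 of 4 tested rose, 1 fell and 1 did not pass. The 2 that rose were IL24 and SERPINB2. IL24, a cytokine of the IL10 family, had 22.8, 20 and 15.5 CPM under complete smoke. Under clean air it had 3.16, 2.29 and 1.61 CPM (log2 fold change 3.05 ± 0.30, edgeR adjusted p = 0.00124). SERPINB2, a plasminogen activator inhibitor, rose by 1.18 on the log2 scale.

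The promoter windows of members of 4 stress pathways were searched for the core of the element that each pathway's factor binds, on both strands, 250 bases before to 50 after the start in RefSeq (GRCh38.p14). The xenobiotic response element core GCGTG was present in 7 of 12 receptor-axis promoters found, or 58.3%, against 36.5% of 35116 promoters. The antioxidant response element TGACNNNGC was present in 9 of 28 NRF2-target promoters (32.1%, against 13.3% of all). The heat shock element GAANNTTC or TTCNNGAA was in 18 of 24 heat shock promoters (75%, against 13.5%), and the metal response element core TGCNCNC in 6 of 6 metallothionein-list promoters, against 55.9%. A match of letters is a description and shows no binding. One promoter of each kind is printed below with the matches on either strand in capitals and the window written along the plus strand, because its gene passed the test: AHR (chr7:17298402-17298701), MAFF (chr22:38201744-38202043), HSPA6 (chr1:161524290-161524589) and MT2A (chr16:56608334-56608633). HSPA6 has 3 heat shock matches, of which 2 overlap, and MT2A has 8 matches, while AHR and MAFF have 1 match each.
AHR: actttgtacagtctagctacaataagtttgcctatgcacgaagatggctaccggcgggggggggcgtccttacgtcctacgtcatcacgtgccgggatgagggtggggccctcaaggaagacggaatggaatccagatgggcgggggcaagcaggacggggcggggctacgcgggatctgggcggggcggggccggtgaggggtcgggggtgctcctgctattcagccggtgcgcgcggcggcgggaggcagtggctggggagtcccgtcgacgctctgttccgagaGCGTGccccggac
MAFF: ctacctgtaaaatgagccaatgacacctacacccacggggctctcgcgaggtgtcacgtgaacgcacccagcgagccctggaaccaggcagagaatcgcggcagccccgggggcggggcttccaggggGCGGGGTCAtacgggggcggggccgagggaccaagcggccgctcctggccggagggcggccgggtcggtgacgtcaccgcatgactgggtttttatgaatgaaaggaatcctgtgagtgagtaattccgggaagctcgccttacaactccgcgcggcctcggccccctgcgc
HSPA6: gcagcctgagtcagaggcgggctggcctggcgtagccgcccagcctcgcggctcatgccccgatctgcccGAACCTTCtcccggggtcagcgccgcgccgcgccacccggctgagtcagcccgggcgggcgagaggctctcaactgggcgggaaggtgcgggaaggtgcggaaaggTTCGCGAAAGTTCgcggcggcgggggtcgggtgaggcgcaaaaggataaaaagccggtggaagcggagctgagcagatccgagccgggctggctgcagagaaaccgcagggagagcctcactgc
MT2A: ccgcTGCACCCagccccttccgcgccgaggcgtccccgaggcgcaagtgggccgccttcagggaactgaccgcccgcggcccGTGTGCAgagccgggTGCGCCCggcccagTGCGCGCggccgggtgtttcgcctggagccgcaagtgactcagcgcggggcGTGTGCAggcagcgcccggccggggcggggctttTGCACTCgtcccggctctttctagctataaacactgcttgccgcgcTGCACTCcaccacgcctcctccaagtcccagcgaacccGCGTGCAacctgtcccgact

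NRF2 targets, the antioxidant and glutathione genes, divided. Of 38 tested, 8 rose and 2 fell (median log2 fold change 0.35), which is near the background of 21.5% higher. The median was −0.35 with library size alone. Without the 2 libraries that stood apart 18 were higher and 7 lower, beside 31.8% and 31.7% of all genes. Calls numbered 3 without clean air library 2, 4 without clean air library 3, 5 without either complete smoke library 1 or 2, and 20 without clean air library 1 or complete smoke library 3. TXN, the thiol reductase thioredoxin, had 1999, 1740 and 1675 CPM under complete smoke and 765, 411 and 406 CPM under clean air (1.77 ± 0.29; adjusted p = 0.00343). MAFF, a small MAF partner of NRF2, had 39.5, 39.5 and 40.4 CPM under complete smoke and 14.4, 13.1 and 8.72 CPM under clean air (1.72 ± 0.22; adjusted p = 0.00184). Both kept their calls with any library left out.

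Of 7 tested genes of glutathione supply 1 rose and 1 fell, beside 21.5% and 19.5% of all genes. GCLC fell, at −1.09 ± 0.37 (adjusted p = 0.0414), and lost its call without complete smoke library 1 or 2 or clean air library 2 or 3. SLC7A11, the cystine importer, had 2.18, 9.85 and 9.21 CPM under complete smoke and 14.5, 33.7 and 32.8 CPM under clean air, and did not pass at −1.93 ± 0.74 (adjusted p = 0.0606), although the groups did not overlap. GCLM did not pass either, at −0.97, nor did TXNRD1, a gene of the thioredoxin system, at −0.99. HMOX1, the haem oxygenase often used to read oxidative stress, had 269, 717 and 222 CPM under complete smoke and 731, 454 and 227 CPM under clean air. Its groups overlapped and its log2 fold change was −0.23 ± 0.58 (adjusted p = 0.764), and 0.57 without the 2 libraries that stood apart. NQO1, a quinone reductase, had 381, 387 and 286 CPM under complete smoke and 346, 235 and 220 CPM under clean air, and did not pass at 0.40 (adjusted p = 0.182).

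Enzymes that handle carbonyls rose in 18 of 37 and fell in 2, beside 21.5% and 19.5% of all genes, with a median log2 fold change of 0.67 (0.01 with library size alone, with 11 higher and 8 lower). By role, 9 of 10 glutathione transferases rose and 0 fell, while of 11 aldehyde dehydrogenases 1 rose and 2 fell. Rises numbered 4 of 11 aldo-keto and carbonyl reductases, 2 of 3 glyoxalases and 2 of 2 formaldehyde-route genes, with 0 falls. Without the 2 libraries that stood apart 25 of the 37 were higher and 1 was lower, beside 31.8% and 31.7% of all genes. Calls numbered 8 without clean air library 2 or clean air library 3, 11 without complete smoke library 1, and 24 without clean air library 1. GSTO1, a glutathione transferase, had 420, 294 and 246 CPM under complete smoke and 131, 63.7 and 62.3 CPM under clean air (1.90 ± 0.35; adjusted p = 0.00489). HAGH, the second enzyme of methylglyoxal removal, rose by 2.02 on the log2 scale and GSTM3 by 1.69. ALDH3A2, the fatty aldehyde dehydrogenase, went the other way, with 27.6, 32.3 and 31.6 CPM under complete smoke and 78.0, 63.3 and 69.8 CPM under clean air (−1.21 ± 0.19; adjusted p = 0.00312).

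Metallothioneins bind zinc and other metals and are induced through MTF1. Of 9 tested genes of this list 2 rose and 1 fell, beside 21.5% and 19.5% of all genes. Calls numbered 2 or 3 with a library left out, except 5 without clean air library 1. MT2A had 2327, 1718 and 1357 CPM under complete smoke and 1168, 444 and 420 CPM under clean air (1.41 ± 0.41; adjusted p = 0.025), and its call was lost without complete smoke library 1, complete smoke library 2, clean air library 2 or clean air library 3, with an adjusted p of up to 0.0915. MT1A rose by 1.69 on the log2 scale. MTF1 itself fell, with 8.49, 9.85 and 13.2 CPM under complete smoke and 18.1, 32.0 and 31.3 CPM under clean air.

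Heat shock genes, which HSF1 induces when proteins unfold in the cytosol, mostly did not pass. Of 25 tested 6 rose and 1 fell, the rises near the 21.5% of all genes, with a median of 0.07 (−0.59 with library size alone, with 2 higher and 7 lower). Without the 2 libraries that stood apart 11 rose and 1 fell, where 31.8% of all genes rose and 31.7% fell. Calls numbered 2 without clean air library 2 or clean air library 3, 4 without complete smoke library 1 or 2, 11 without complete smoke library 3 and 13 without clean air library 1. HSPA6, a strictly inducible HSP70, was at 9.57, 84.1 and 18.8 CPM under complete smoke and at 10.7, 3.77 and 3.16 CPM under clean air. The groups overlapped, since clean air library 1 was above complete smoke library 1, and complete smoke library 2 was far above the rest. Its log2 fold change was 2.68 ± 0.96 (adjusted p = 0.0496), and the call was lost without complete smoke library 2, clean air library 2 or clean air library 3, with an adjusted p of up to 0.26. HSPE1, the mitochondrial cochaperone, was steadier, with 120, 123 and 124 CPM under complete smoke and 65.8, 34.1 and 35.9 CPM under clean air (1.44 ± 0.25; adjusted p = 0.00453). DNAJB1 and BAG3 did not pass, at 0.77 and −0.73. HSPA1A and HSPA1B, near-identical copies whose reads cannot be assigned to either, had 0 to 6 counts per library and were not tested.

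The integrated stress response acts through phosphorylation of eIF2 and the factor ATF4. Of its 31 tested genes 7 rose and 2 fell, the rises near the 21.5% of all genes, with a median of 0.27 (−0.39 with library size alone, with 4 higher and 11 lower). Without the 2 libraries that stood apart 15 rose and 4 fell, where 31.8% of all genes rose. Calls numbered 3 without clean air library 2, 4 without clean air library 3, 5 without complete smoke library 2, 8 without complete smoke library 1, 15 without complete smoke library 3 and 16 without clean air library 1. ATF3, a stress-induced repressor, had 28.9, 65.3 and 50.5 CPM under complete smoke and 11.1, 15.4 and 7.96 CPM under clean air (2.07 ± 0.43; adjusted p = 0.00786). TRIB3, a pseudokinase target of ATF4, had 37.2, 34.3 and 18.6 CPM under complete smoke and 12.9, 10.6 and 8.58 CPM under clean air (1.49 ± 0.31). DDIT3, also known as CHOP, rose by 1.63 on the log2 scale but lost its call without complete smoke library 2, clean air library 2 or clean air library 3. The genes of amino acid supply did not follow, with 0 of 10 higher and 1 lower. ASNS, the asparagine synthetase, was at 0.30 and PSAT1 at −0.47, neither passing.

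Genes of the endoplasmic reticulum, whose chaperones fold secreted proteins, fell more often than they rose. Of 26 tested genes of the unfolded protein response 1 rose and 9 fell (background 19.5% lower), with a median of −0.29 against −0.06 over all genes. Without the 2 libraries that stood apart 7 rose and 10 fell, where 31.8% of all genes rose and 31.7% fell. Calls numbered 7 or 8 without any of complete smoke libraries 1 and 2 and clean air libraries 2 and 3, 13 without complete smoke library 3 and 16 without clean air library 1. HSPA5, the master chaperone BiP, had 705, 852 and 679 CPM under complete smoke and 2678, 1889 and 1840 CPM under clean air (−1.52 ± 0.27; adjusted p = 0.00454). DNAJC3, an inhibitor of the eIF2 kinase PERK, had 11.6, 12.9 and 25.3 CPM under complete smoke and 62.4, 92.5 and 79.7 CPM under clean air (−2.23 ± 0.38; adjusted p = 0.00386). EIF2AK3, which encodes PERK, fell by 1.63 on the log2 scale and SEL1L, an adaptor of protein degradation, by 2.04. None of these 4 overlapped between groups, and each kept its call with any library left out.

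Targets of p53, the factor that T antigen binds, divided as well. Of 29 tested 9 rose and 7 fell, beside 21.5% and 19.5% of all genes, with a median of 0.12 (−0.55 with library size alone, with 3 higher and 13 lower). Calls numbered 9 or 10 without any of complete smoke libraries 1 and 2 and clean air libraries 2 and 3, 17 without complete smoke library 3 and 19 without clean air library 1. GADD45A, a growth arrest gene that other stress factors also induce, had 128, 154 and 140 CPM under complete smoke and 34.5, 28.3 and 21.3 CPM under clean air (2.33 ± 0.23; adjusted p = 0.00124). PLK3, a stress kinase, had 24.9, 27.8 and 20.9 CPM under complete smoke and 7.01, 4.88 and 3.78 CPM under clean air (2.23 ± 0.26). PMAIP1, the BH3-only protein NOXA, rose by 1.67 on the log2 scale. CDKN1A, the p21 inhibitor of the cell cycle, was higher by 0.71 on the log2 scale (adjusted p = 0.0367; 0.04 with library size alone), and MDM2, the ligase that degrades p53, was lower, at −1.11 (adjusted p = 0.0313). Both calls were lost without complete smoke library 1, complete smoke library 2, clean air library 2 or clean air library 3. TIGAR, PPM1D and POLH fell by 1.76, 1.33 and 1.30 and kept their calls.

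The ID genes encode inhibitors of basic helix-loop-helix factors and are classical targets of BMP and TGF-beta. ID2 had 36.1, 49.5 and 45.6 CPM under complete smoke and 6.23, 4.64 and 3.62 CPM under clean air (3.18 ± 0.26; adjusted p = 0.00124). ID1 and ID3 rose by 2.55 and 2.47 on the log2 scale. CCN2, the connective tissue growth factor, had 252, 145 and 183 CPM under complete smoke and 39.9, 46.0 and 35.0 CPM under clean air (2.26 ± 0.27). These 4 kept their calls with any library left out, and none overlapped between groups. SNAI1, a repressor of E-cadherin, rose by 2.93 on the log2 scale. The list as a whole did not shift, with 8 of 32 higher and 5 lower, beside 21.5% and 19.5% of all genes, and a median of 0.02 (−0.69 with library size alone, with 6 higher and 15 lower). COL7A1, the anchoring fibril collagen, fell, with 32.3, 32.4 and 75.2 CPM under complete smoke and 170, 112 and 172 CPM under clean air. Calls of the list numbered 7 or 8 without any of complete smoke libraries 1 and 2 and clean air libraries 2 and 3, and 17 or 18 without clean air library 1 or complete smoke library 3.

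Mitosis genes fell more often than they rose. Of 36 tested 12 fell and 4 rose, beside 19.5% lower and 21.5% higher among all genes, with a median of −0.51 (−0.69 without the 2 libraries that stood apart and −1.19 with library size alone, where the median of all genes was −0.75). Calls numbered 7 or 8 without any of complete smoke libraries 1 and 2 and clean air libraries 2 and 3, 19 without complete smoke library 3 and 21 without clean air library 1. KIF11, the motor that builds the bipolar spindle, had 25.4, 37.2 and 54.0 CPM under complete smoke and 69.7, 151 and 158 CPM under clean air (−1.70 ± 0.39; adjusted p = 0.0112). MKI67, the proliferation marker, had 113, 112 and 239 CPM under complete smoke and 273, 507 and 521 CPM under clean air (−1.49 ± 0.36; adjusted p = 0.0123), and its adjusted p was 0.0507 without complete smoke library 2. PTTG1, the securin, rose by 1.58 on the log2 scale. Of 42 DNA replication genes 7 rose and 8 fell, near the shares of all genes (median 0.01; −0.67 with library size alone, with 1 higher and 21 lower), with E2F8, an atypical E2F repressor, at −1.76 and POLE2, a subunit of DNA polymerase epsilon, at 1.33, both called with any library left out. Their calls numbered 6 or 7 without any of complete smoke libraries 1 and 2 and clean air libraries 2 and 3, and 23 or 24 without complete smoke library 3 or clean air library 1. Of 31 genes of Fanconi anaemia and crosslink repair 7 rose and 8 fell, also near the 21.5% and 19.5% of all genes (median −0.25; −0.96 with library size alone, with 2 higher and 16 lower), and UBE2T, the ubiquitin-conjugating enzyme of that pathway, was the member that kept its rise, 1.52, with any library left out. Calls of this list numbered 4 without clean air library 2 or 3, 5 and 7 without complete smoke library 1 and 2, 16 without clean air library 1 and 23 without complete smoke library 3.

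**Figure D4:**
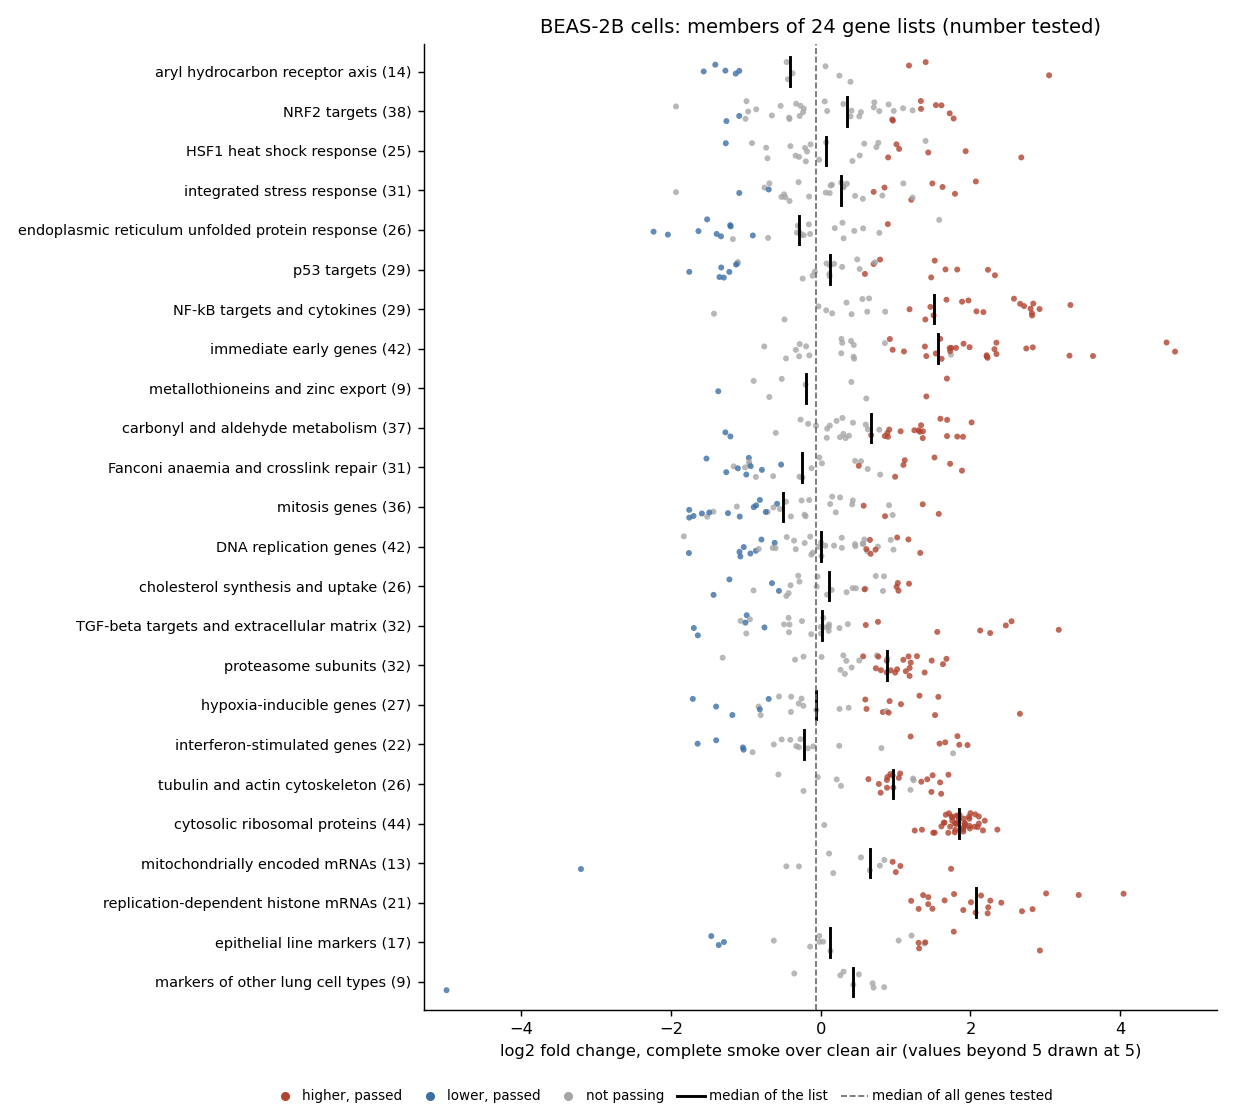
Each point is a tested member of 1 of 24 gene lists, placed by its log2 fold change, complete smoke over clean air; the bar is the list median and the dashed line the median of all genes, −0.06. Histone mRNAs, ribosomal proteins, immediate early genes and NF-kB targets have medians of 2.07, 1.84, 1.57 and 1.51, and mitosis genes −0.51.

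Short, abundant mRNAs made up much more of the complete smoke libraries. Cytosolic ribosomal protein genes took 25.9%, 22.5% and 21% of counts in complete smoke libraries 1 to 3, against 14.6%, 7.63% and 7.68% in clean air libraries 1 to 3. The means were 23.1% ± 2.53 and 9.98% ± 4.02 (SD, n = 3 each), with no overlap and a two-sided exact permutation p of 0.1, the smallest that 3 against 3 allows. These shares were summed over protein-coding genes with a ribosomal protein symbol, a different set from the list of 44 genes followed here. Of the 44 listed genes 43 rose and 0 fell, with a median log2 fold change of 1.84. The median was 2.61 without the 2 libraries that stood apart and 1.21 with library size alone. Calls numbered 22 without clean air library 2 or 3, 28 without complete smoke library 1, 37 without complete smoke library 2 and 43 without clean air library 1 or complete smoke library 3. RPS29, a small-subunit protein, had 3069, 2284 and 1844 CPM under complete smoke and 787, 306 and 309 CPM under clean air (2.36 ± 0.43; adjusted p = 0.00473). RPL22 did not pass, at 0.05. Clean air library 1 was the highest clean air library for RPS29 and for the summed share.

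Replication-dependent histone mRNAs end in a stem-loop and normally carry no poly(A) tail, and the libraries were made with a kit that selects poly(A) mRNA. All 21 tested of 22 rose, with a median of 2.07 (1.45 with library size alone) and with 17 to 21 calls whichever library was left out. H1-4, a linker histone, had 6.74, 3.31 and 13.4 CPM under complete smoke and 0.732, 0.196 and 0.507 CPM under clean air (4.05 ± 0.63; adjusted p = 0.00311). Complete smoke library 3, which lay between the groups for most genes, was the highest here: over 20 histone genes its median lay at 125% of the distance from clean air to complete smoke libraries 1 and 2. H3C2 rose by 2.83 on the log2 scale. Levels of these genes in such libraries also depend on tail selection, whose part in the result was not tested.

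The 13 mRNAs of the mitochondrial genome lay mostly above the bulk of genes, with 10 of 13 log2 fold changes above 0 and a median of 0.66 against −0.06 over all genes (−0.00 against −0.75 with library size alone). Of them 4 rose and 1 fell, beside 21.5% and 19.5% of all genes. Calls numbered 1 without clean air library 3, 2 without complete smoke library 1, complete smoke library 2 or clean air library 2, 6 without complete smoke library 3 and 8 without clean air library 1. MT-ND6 is a subunit of complex I and lies on the opposite mitochondrial strand to the other mRNAs. It had 8.43, 8.76 and 61.4 CPM under complete smoke and 215, 211 and 297 CPM under clean air (−3.20 ± 0.78; adjusted p = 0.0131). Complete smoke library 3 set much of its spread, and the log2 fold change was −4.81 without that library and −2.08 with counts that ignore strand. Mitochondrial genes together took 4.97% ± 0.72 of counts under complete smoke and 5.96% ± 0.40 under clean air (SD, n = 3 each; exact permutation p = 0.2).

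The difference between the groups followed gene length, both as exonic length and as span, the distance from the first to the last base of a gene. Among 9421 protein-coding genes with a mean of at least 5 CPM, the median log2 fold change by span quintile, shortest to longest, was 0.88, 0.28, −0.06, −0.42 and −0.60. In the shortest quintile, 207 to 11420 bases, 49.8% of genes were higher and 6.05% lower. In the longest, 95018 to 2241765 bases, 9.34% were higher and 30.7% lower. With library size alone the 5 medians were 0.20, −0.41, −0.75, −1.11 and −1.28, so the order stayed while the level shifted. Without the 2 libraries that stood apart they were 1.37, 0.49, 0.00, −0.57 and −1.0. By exonic length the medians were 0.98, 0.24, −0.14, −0.43 and −0.64, the same order as by span. In the shortest quintile of exonic length 57.3% of genes were higher and 2.92% lower. Of 103 genes with a single exon in every transcript 21 were higher and 19 lower, with a median of −0.00. Of 9318 genes with more than 1 exon 2319 were higher and 1954 lower, with a median of −0.04. In the shortest quintile of span, the level relative to the mean of the clean air libraries was 1.2, 0.99 and 0.47 in complete smoke libraries 1 to 3. It was 0.51, −0.21 and −0.28 in clean air libraries 1 to 3. Clean air library 1 and complete smoke library 3 thus did not differ in this measure the way the other libraries of their groups did.

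Several lists above consist of short genes. The median span was 6312 bases for the immediate early genes, 8528 for the NF-kB list, 5773 for the ribosomal proteins and 975 for the histones, against 32944 over all tested protein-coding genes. It was 16980 bases for the unfolded protein response list, which fell, 29660 for the mitosis genes and 36501 for the receptor axis. CYP1A1, HSPA5 and BMF span 6069, 6478 and 21003 bases and fell. The part of span or exonic length in the result of each list was not tested.

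**Figure D5:**
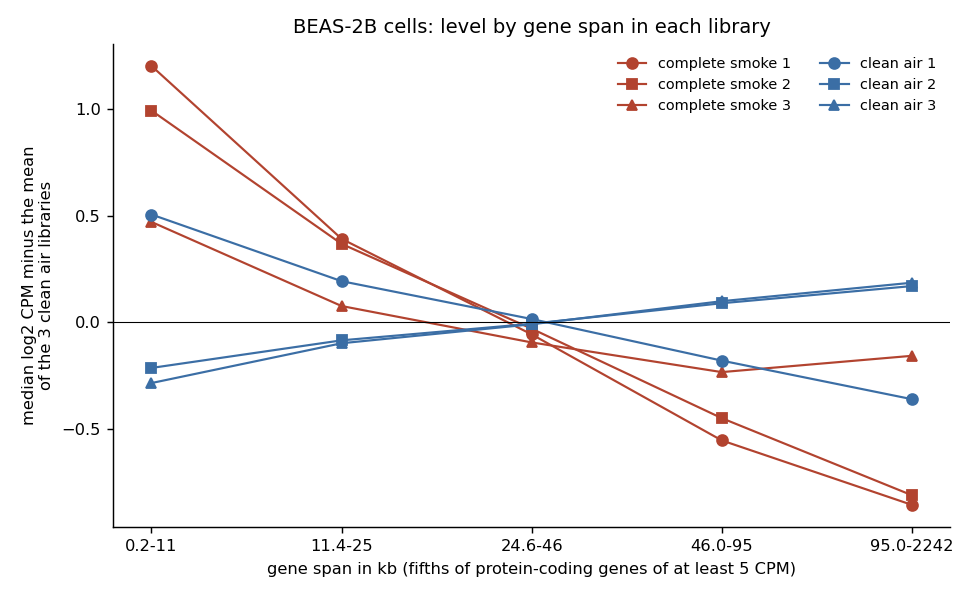
For each of the 6 libraries, the line joins the median over genes of log2 CPM minus the mean of the 3 clean air libraries, in 5 quintiles of gene span from shortest to longest. Complete smoke libraries 1 and 2 run from 1.2 and 0.99 down to −0.85 and −0.81, complete smoke library 3 from 0.47 to −0.16 and clean air library 1 from 0.51 to −0.36. Clean air libraries 2 and 3 slope the other way, which centring on the mean of the 3 clean air libraries largely sets.

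Lists of housekeeping machinery with short genes rose widely. Proteasome subunits rose in 20 of 32 and fell in 0, beside 21.5% and 19.5% of all genes, with a median of 0.88 (0.23 with library size alone, with 8 higher and 3 lower). Calls numbered 5 without clean air library 2 or 3, 9 without complete smoke library 1, 12 without complete smoke library 2 and 23 without clean air library 1 or complete smoke library 3. PSMB7, a catalytic subunit, had 1021, 860 and 718 CPM under complete smoke and 481, 219 and 230 CPM under clean air (1.48 ± 0.33; adjusted p = 0.00958). Of 26 tubulin and actin cytoskeleton genes 18 rose and 0 fell (median 0.96), but with library size alone 2 passed, and calls numbered 1 without clean air library 3, 2 without complete smoke library 1 or clean air library 2, and 3 without complete smoke library 2. ACTG1, cytoplasmic gamma actin, had 7308, 5802 and 3307 CPM under complete smoke and 1935, 1755 and 1343 CPM under clean air (1.71 ± 0.37). In lists made after values had been seen, 62 of 77 mitochondrial ribosomal protein genes and 68 of 76 nuclear genes of the respiratory chain rose and 0 fell in both, beside 21.5% higher among all genes. With library size alone 40 rose and 8 fell of the mitochondrial ribosomal proteins and 50 rose and 1 fell of the respiratory chain. Without clean air library 2 their calls numbered 31 and 36, without clean air library 3 36 and 38, without complete smoke library 1 38 and 49 and without complete smoke library 2 43 and 50. Zinc-finger genes with a ZNF symbol fell in 160 of 452 and rose in 17, and chromatin writers and erasers fell in 29 of 63 and rose in 4, beside 19.5% lower among all genes. With library size alone 293 and 43 fell, where 41.8% of all genes did. Calls of these lists numbered 71 and 14 without clean air library 2, 73 and 13 without clean air library 3, 86 and 17 without either complete smoke library 1 or 2, and 253 and 44 without complete smoke library 3.

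Cholesterol, hypoxia and interferon genes showed no common direction. Of 26 cholesterol genes 5 rose and 4 fell, near the 21.5% and 19.5% of all genes (0 higher and 10 lower with library size alone, where 9.36% and 41.8% of all genes were), with DHCR7, the last enzyme of the pathway, higher by 1.18 and FDFT1, the squalene synthase, by 1.03. Of 27 hypoxia-inducible genes 10 rose and 5 fell (3 higher and 12 lower with library size alone), among them ANGPTL4, a lipoprotein lipase inhibitor, with 27.3, 13.8 and 11.5 CPM under complete smoke and 5.61, 1.22 and 1.55 CPM under clean air (2.66 ± 0.62; adjusted p = 0.0114). NDRG1 fell by 1.40 on the log2 scale. Of 22 tested interferon-stimulated genes 6 rose and 4 fell (3 higher and 8 lower with library size alone), with IRF7, the inducible interferon regulator, higher by 1.66 and STAT2, a signal transducer of the interferon receptor, at −1.65, lower. All 6 genes named here kept their calls with any library left out. Calls of the cholesterol list numbered 2 without any of complete smoke libraries 1 and 2 and clean air libraries 2 and 3, and 14 without either other library. Those of the hypoxia list numbered 7 without clean air library 2 or 3 and up to 19 without clean air library 1. Those of the interferon list numbered 3 without complete smoke library 2 or clean air library 3 and up to 12 without complete smoke library 3. Of the line markers 3 of 10 keratins and epithelial genes rose and 2 fell, and 2 of 7 mesenchymal genes rose and 1 fell, with TP63, the basal-cell factor, lower at −1.46. Calls over these 17 numbered 3 without clean air library 2 and 11 without clean air library 1 or complete smoke library 3.

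Complete and filtered smoke could not be separated by this test. With edgeR's test 0 of 16356 genes passed (0% of genes), with 222 at an unadjusted p under 0.05, and DESeq2's Wald test also called 0, with 310 at an unadjusted p under 0.05. The genes with the smallest p among those at 5 CPM or more included SRP9, of the signal recognition particle, with 159, 97.5 and 201 CPM under complete smoke and 87.2, 85.2 and 87.9 CPM under filtered smoke (log2 fold change 0.81 ± 0.25; adjusted p = 1). TMED7, a cargo receptor of the secretory pathway, had 28.3, 12.4 and 49.8 CPM under complete smoke and 11.3, 10.2 and 12.1 CPM under filtered smoke (1.43 ± 0.44; adjusted p = 1). In both genes the groups did not overlap and complete smoke library 3 was the highest. CYP1A1 had a log2 fold change of 0.16 ± 0.20 between complete and filtered smoke, CXCL8 0.69 ± 0.29 and FOS −0.11 ± 0.69. A p that misses the threshold does not show that the exposures acted alike. Filtered smoke against clean air called 3867 genes higher (23.6%) and 4080 lower (24.9%), and that comparison shares its clean air libraries with the one above. BMF was at 3.74, 2.34 and 2.05 CPM under filtered smoke and CYP1A1 at 3.78, 3.99 and 3.84 CPM, within or near the range under complete smoke.

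The response of BEAS-2B to complete smoke was then set against that of A549 in a fit over all 18 libraries, with the difference tested as an interaction. Of 17703 genes 308 passed (1.74%), 100 with a higher (0.565%) and 208 with a lower log2 fold change in BEAS-2B (1.17%). The number was 87 to 797 when each library was left out and 3774 without BEAS-2B clean air library 1 and complete smoke library 3. Of the receptor axis 2 members passed, both with a lower log2 fold change in BEAS-2B. On the scale of this fit CYP1A1 was at 5.49, 4.64 and 5.07 CPM under complete smoke and 15.1, 12.4 and 13.2 CPM under clean air in BEAS-2B cells, and at 35.2, 45.0 and 117 CPM under complete smoke and 15.8, 0.623 and 2.7 CPM under clean air in A549 cells. Its log2 fold change was −1.42 in BEAS-2B and 3.38 in A549, a difference of −4.80 ± 0.97 (adjusted p = 0.0217). The difference lay between −6.76 and −4.09 with a library left out, and the call was lost without A549 complete smoke library 3, A549 clean air library 3 or BEAS-2B complete smoke libraries 1 or 2 (adjusted p up to 0.0634). CYP1B1 differed by −3.0 (−1.18 in BEAS-2B and 1.82 in A549; adjusted p = 0.0267), but its call was lost in 8 of the 12 fits that left out a library.

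The fall of BMF was a contrast with A549 that held in all 12 of those fits, at −4.74 in BEAS-2B and −0.23 in A549 (difference −4.51 ± 0.56; adjusted p = 0.0013). The differences of AMH (−3.09), CCNE1 (−1.70) and E2F8 (−1.9) also held in all 12. Of the immediate early genes, EGR2, EGR3 and KLF4 had smaller log2 fold changes in BEAS-2B than in A549, by −2.90, −4.52 and −1.43, and these calls were lost in 7, 4 and 4 of the 12 fits. FOS, IL6, CXCL8, HSPA6 and HMOX1 did not pass. HSPA6 had a log2 fold change of 2.71 in BEAS-2B and 5.77 in A549 (adjusted p of the difference = 0.172), and IL6 of 3.34 and 1.42 (adjusted p = 0.157). No NRF2, heat shock or ribosomal protein list member passed, at 0 calls each in edgeR's test.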

How the data were processed

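RNA from BEAS-2B and A549 cells was sequenced as poly(A)-selected, stranded libraries with a TruSeq mRNA kit, per the labels' protocols. The deposited values are read counts per gene that the authors made, with STAR 2.7.10b and GRCh38 named in the submitters' processing notes; the annotation release is not given in the sources used here. Column 4 of each deposited count file was used as the strand of the kit, since it held 11.7 to 17.1 times the counts of the opposite strand. The 4 summary lines per file were left out of library sizes and tests; 62625 of 62649 gene IDs had a symbol, and 58225 matched GENCODE 29, from which spans and coordinates were taken. Reads shared by near-identical copies or overlapping genes may be lost or misassigned by such counting.

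The 9 BEAS-2B libraries were fitted with edgeR 4.0.16 (R 4.3.3; filterByExpr, trimmed-mean scaling, robust quasi-likelihood test, Benjamini-Hochberg adjustment, threshold 0.05), with no replicate block, and the line difference was an interaction over all 18 libraries. CPM values use effective library sizes, which scale with trimmed means. The biological coefficient of variation was 0.299, and 0.198 without the 2 libraries that stood apart. Depth was 28.5 to 55.0 M counts per library. In simulated counts for 16356 genes of the main comparison the test recovered 24% of genes changed by 1 log2 unit and 96% of those changed by 2, with 7 false calls. The simulation changed only 100 genes by each amount, with the same variation for every gene and no outlying libraries. In the data 41% of genes were called and 2 libraries stood apart, so recovery and false calls there may differ. Same-numbered complete and filtered smoke libraries deviated together from their group means (correlations 0.647, 0.293 and 0.666), as did filtered smoke and clean air libraries (0.581, 0.159 and 0.571). No label says what the number marks. A fit with the number as a block was an alternative. Others used limma 3.58.1 and DESeq2 1.42.0.

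Members and gene lists were chosen with earlier results of these data known, and list medians are given beside those of all genes with no test. Named genes were 35 stress genes, the 10 highest and 10 lowest protein-coding genes of at least 5 CPM with groups apart, up to 4 called members per list and direction, and 5 per direction in the other comparisons. Other list members were named after their values were seen. A few results are not reported here.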

Additional observations from a re-analysis of the deposited data

Results flagged for a closer look

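For 12 genes the response to complete smoke differed between BEAS-2B and A549 cells in the interaction test. They were named for that comparison, as stress genes or, for RAB27B, among the 10 lowest genes of complete smoke against clean air. The values are differences of log2 fold changes, BEAS-2B minus A549, with edgeR's adjusted p. NRG1, an ERBB3 ligand, differed by 2.27 (adjusted p = 0.000388), at 1.32 in BEAS-2B and −0.95 in A549. BMF differed by −4.51 (0.0013), AMH by −3.09 (0.00303; −2.78 in BEAS-2B and 0.31 in A549) and NRARP, a Notch feedback gene, by −3.03 (0.00303; 0.96 in BEAS-2B and 3.99 in A549). These 4 differences passed in all 12 fits that left out a library.

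TMEM92 differed by 2.50 (adjusted p = 0.0166) and lost its call without BEAS-2B complete smoke library 1. CYP1A1 differed by −4.80 (0.0217) and EGR3 by −4.52 (0.0213; 1.67 in BEAS-2B and 6.20 in A549), with the call lost in 4 of the 12 fits for each. CYP1B1 differed by −3.0 (0.0267), ZBTB20 by 3.20 (0.0342, at 0.89 in BEAS-2B and −2.31 in A549) and WNT5B by 2.36 (0.0328), with the call lost in 8 of the 12 fits for each. In BEAS-2B cells ZBTB20 was low, at 0.427, 0.428 and 2.09 CPM under complete smoke and 0.315, 0.616 and 0.62 CPM under clean air. Only complete smoke library 3 lay above every clean air library for ZBTB20. ID3 differed by 2.39 (0.0296; 2.49 in BEAS-2B and 0.09 in A549) and lost its call in 9 fits, and RAB27B differed by −1.99 (0.046) and lost its call in 10. For each of these genes except TMEM92 the libraries whose omission lost the call include both lines. Groups of 3 libraries were not tested for outlying samples.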

How the results depend on the processing

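For complete smoke against clean air the main count of 6704 calls was 12449 with limma-voom and quality weights, which set the weights of clean air library 1 and complete smoke library 3 to 0.176 and 0.247, 10315 with a replicate block and 10616 without those 2 libraries; it lay between 2916 and 9026 with each library left out. The other alternatives run gave 4583 (mean of at least 5 CPM) to 8633 (all 18 libraries) calls. Same-numbered complete smoke and clean air libraries correlated at 0.643, −0.134 and 0.652 over their deviations from the group means, so the numbers did not pair these groups in all 3. For complete against filtered smoke the count was 0 in every setting except without complete smoke library 2, where it was 2, so the range was 0 to 2; with the replicate block 0 passed and 951 had an unadjusted p under 0.05.

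For the line difference the main count of 308 was 1571 with library size alone, 797 without the low-count filter, 909 with DESeq2's Wald test, 6351 with quality weights, 3541 with the replicate block, 3774 without the 2 libraries and 87 to 797 with each library left out. Of 156 named genes called in the first comparison, 83 kept their call with each of the 6 libraries left out. With library size alone 27 lost it, and 1 more, CDK1, changed sign and did not pass (edgeR adjusted p = 0.772). Named genes and length quintiles whose value changed sign with library size alone were AHRR (−0.40), NQO1 (−0.27), MT1X (−0.070), CDK1 (−0.11), and the second quintile of span (−0.41) and of exonic length (−0.44). List medians did so for the NRF2 (−0.35), heat shock (−0.59), integrated stress (−0.39), p53 (−0.55), DNA replication (−0.67), cholesterol (−0.55), TGF-beta (−0.69), line marker (−0.56) and other lung marker (−0.32) lists and, at −0.00, the mitochondrial mRNAs, where the median of all genes was −0.75. AHRR was −0.038 with counts that ignore strand, −0.075 without the 2 libraries and −0.10 (without complete smoke library 3) to 0.40 with each library left out. HMOX1 was 0.64 with quality weights, 0.57 without the 2 libraries and −0.93 to 0.25 with each library left out, above 0 without clean air library 1 (0.25) or complete smoke library 3 (0.085). SRXN1 was −0.062 (without complete smoke library 2) to 2.22 with each library left out. Apart from what the fewer libraries or the weights set by construction, the cause was not tested. Depth was 28.5 M counts or more per library, and genes below the count minimum were not tested.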

Other observations

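Processed pseudogenes are copies of mRNAs that were inserted back into the genome. They were called higher in 192 of 491 tested and lower in 19, beside 21.5% and 19.5% of all genes. Their median log2 fold change was 0.96 (0.34 with library size alone). Reads may be lost or misassigned between such copies and their parent genes, and the part of this in the result was not tested. Small nucleolar RNA host genes, a list made after values had been seen, were higher in 17 of 27 and lower in 1, beside the same shares, with a median of 1.31 (0.68 with library size alone) and a median span of 4983 bases. Their calls numbered 9 without clean air library 3, 10 without clean air library 2 and 22 without clean air library 1 or complete smoke library 3.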
